A study of Mus musculus with 2 samples.

Results

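Myl9, Tagln and Cnn1 are 3 genes of the smooth muscle contractile apparatus, and all 3 were lower in mouse embryonic stem cells that overexpressed Prdm14. They were taken by symbol from the 886 genes that the authors listed as different between the conditions, and each symbol matched 1 listed Ensembl ID. The cells were 46C cells, embryonic stem cells of the mouse that carry a fluorescent reporter at Sox1, and both cultures grew with serum and the cytokine LIF. The control culture overexpressed only the Flag tag. The second culture overexpressed Flag-tagged Prdm14, a DNA-binding regulator of pluripotency. The labels give 2 samples in all, 1 per condition, so the differences have no replicate check here. The labels give no clone, passage or time of harvest for either condition. The title and the labels name Prdm14 as the introduced gene, whereas the series' design text gives gadd45g, and the labels were followed: Prdm14 was at 3.296 TPM in Flag cells and 399 TPM in Prdm14 cells.

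Smooth muscle contracts when the regulatory light chain of myosin is phosphorylated, which lets myosin pull on actin filaments. Myl9 encodes that light chain, Cnn1 encodes calponin, which binds actin and restrains the myosin ATPase, and Tagln encodes transgelin (SM22), an actin-binding protein of the calponin family. All 3 are widely used markers of differentiated smooth muscle, and serum response factor (SRF), acting with its cofactors myocardin and the MRTF proteins, is known to drive such genes through a DNA element called the CArG box. SRF cofactors of the MRTF kind respond to actin assembly in many cell types, so smooth muscle genes can be transcribed outside muscle.

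The upstream sequences of the members are shown because SRF is known to act on such genes through the CArG box. A part of SRF in the members' differences was not tested. The RefSeq promoter table (build GRCm38.p6, the assembly that mm10 stands for) holds windows from 250 bases before to 50 after a transcription start, and 2 of the 3 members, Myl9 and Cnn1, matched an entry. Each stretch below is on the plus strand, 5′ to 3′, and ends at the last base before the gene in the GENCODE M21 annotation. The Myl9 stretch covers 206 bases at chr2:156775214-156775419, and the Cnn1 stretch covers 213 bases at chr9:22099003-22099215. Capitals mark an exact CArG box, and the Cnn1 stretch has none.

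Myl9: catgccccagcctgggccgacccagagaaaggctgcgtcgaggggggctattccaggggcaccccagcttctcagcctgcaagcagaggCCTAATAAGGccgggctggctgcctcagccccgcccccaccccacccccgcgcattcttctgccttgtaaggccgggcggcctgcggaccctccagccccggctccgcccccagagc
Cnn1: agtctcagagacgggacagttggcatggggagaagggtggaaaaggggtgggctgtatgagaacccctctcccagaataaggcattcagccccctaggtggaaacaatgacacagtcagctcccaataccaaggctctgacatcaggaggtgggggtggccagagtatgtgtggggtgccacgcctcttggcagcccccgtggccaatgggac

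The CArG box was searched in the whole window as its 10-base consensus; the consensus reads the same on both strands, so 1 scan covers both. Myl9 held 1 exact box, CCTAATAAGG, at positions -161 to -152 from the RefSeq start (chr2:156775303-156775312). A second Myl9 site, at positions -99 to -90, differed from the consensus at a single base. The Cnn1 window held no box, exact or with 1 mismatch, which says only that these letters are not in that window. Among all 32851 promoter windows in the table, 535 (1.63%) held an exact box and 21.1% held one with up to 1 mismatch. Exact boxes were in 8 of 430 windows of lower listed genes (1.86%), Myl9 among them, and in 2 of 454 windows of higher listed genes (0.441%). With up to 1 mismatch the shares were 20% for lower and 15.4% for higher listed genes, both under the 21.1% of all windows. Of the 28 windows of the smooth muscle list described further down, 3 (10.7%) held an exact box, in Myl9, Myl6 and Fhl1. With up to 1 mismatch, 9 of these 28 windows (32.1%) held one. The windows also differed in base composition: Myl9 was 68.3% G and C, Cnn1 59.3%, against a median of 52.7% over all windows. The observed-to-expected ratio of CpG was 0.583 for Myl9 and 0.239 for Cnn1, against a median of 0.384.

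**Figure D1:**
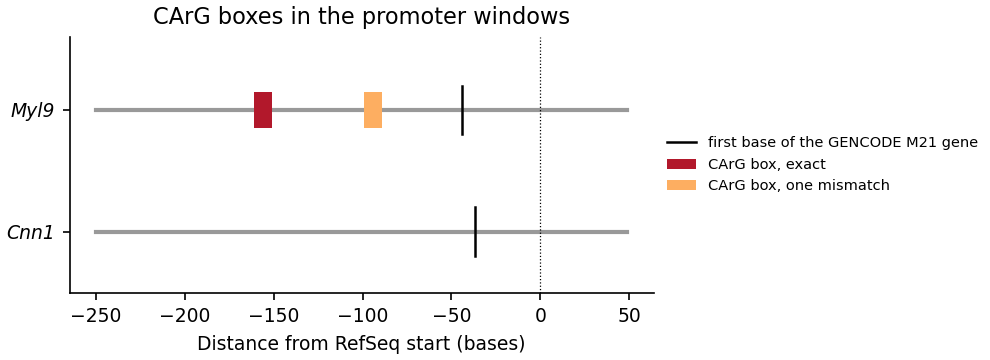
Promoter windows of Myl9 and Cnn1, drawn as grey lines from 250 bases before to 50 after the RefSeq start (x axis, distance in bases). Coloured blocks are CArG boxes, exact or with 1 mismatch, and vertical black bars are the first base of the gene in GENCODE M21; Myl9 has an exact box at -161 and Cnn1 has none.

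Myl9 was the most abundant member in Flag cells and had the largest fold difference. The gene (ENSMUSG00000067818, chromosome 2, 156775420 to 156781658, plus strand) stood at a mean of 11.6 TPM in Flag cells and 1.74 TPM in Prdm14 cells. TPM corrects for the length of a transcript and for the size of a library, so levels can be compared between genes. In the authors' deposited table the mean was thus 6.62-fold lower in Prdm14 cells, a log2 fold change of -2.73, with a deposited q-value of 8.28e-08. Of the Flag level, 15.1% remained.

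Cnn1 (ENSMUSG00000001349, chromosome 9, 22099216 to 22109630, plus strand) stood at 8.003 TPM in Flag cells and 1.87 TPM in Prdm14 cells. The authors' deposited table therefore has it 4.29-fold lower, a log2 fold change of -2.10, with 23.3% of the Flag level remaining. This calponin gene had the smallest fold difference of the 3 and the smallest deposited q-value, 3.25e-13 in the authors' deposited table.

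Tagln (ENSMUSG00000032085, chromosome 9, 45929619 to 45936058, minus strand) had the lowest level of the 3 members in both conditions. Its mean was 5.91 TPM in Flag cells and 1.23 TPM in Prdm14 cells. In the authors' deposited table it was 4.79-fold lower, a log2 fold change of -2.26, with 20.9% of the Flag level remaining and a q-value of 1.59e-07. Tagln is close to the entry level of the table, in which the smallest value of the larger mean is 5.01 TPM. Its value is also uncertain because an antisense gene, Gm48529, covers 877 of the 1595 exon bases of its longest coding transcript (55.0%) and Pcsk7, a convertase gene on the other strand, covers 108; the strand setting of the counting is not given in the sources used here. Neither of these genes is listed.

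**Figure D2:**
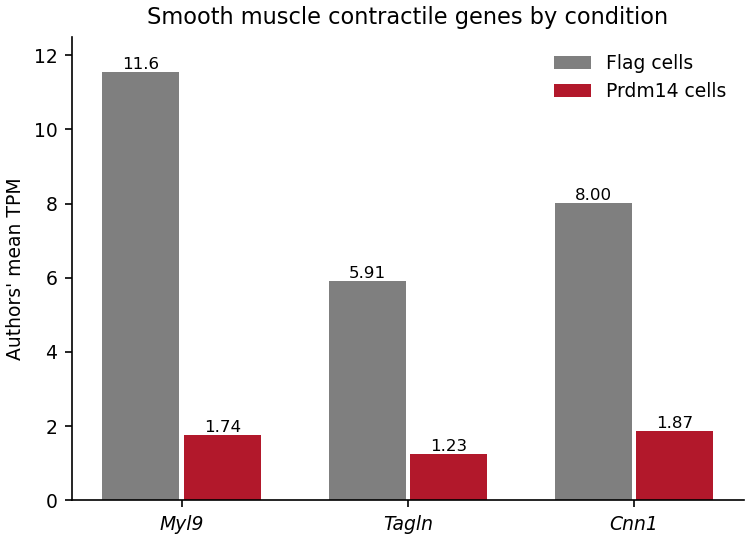
Authors' mean TPM (y axis, from 0) of Myl9, Tagln and Cnn1 in Flag cells (grey) and Prdm14 cells (red), with 1 deposited mean per bar and therefore no error bars. Flag means run from 5.91 to 11.6 TPM and Prdm14 means from 1.23 to 1.87 TPM.

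The members lay closer together in Prdm14 cells than in Flag cells in absolute level, and their order was not the same. In Flag cells the order was Myl9, Cnn1, Tagln; in Prdm14 cells it was Cnn1, Myl9, Tagln. The Myl9 mean was 1.44 times the Cnn1 mean in Flag cells and 0.935 times in Prdm14 cells, and with 1 mean per condition it cannot be said whether such neighbours differ beyond their spread. The ratio of Cnn1 to Tagln was 1.35 in Flag cells and 1.51 in Prdm14 cells. Together the members made 25.5 TPM in Flag cells and 4.85 TPM in Prdm14 cells, a 5.26-fold lower sum, of which Myl9 was 45.4% and 36.01%. In a bulk sample, fewer cells with these transcripts and less RNA per cell cannot be told apart.

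All 3 members were lower at least 4-fold, as were 145 of the 886 listed genes (16.4%); 418 listed genes (47.2%) were lower at all. The deposited q-values behave as Benjamini-Hochberg values computed for 20309 genes. Of these, 4.36% are listed in either direction, 2.06% as lower and 0.714% as lower at least 4-fold. Shares of gene lists and families further down count every annotated gene, tested or not, so their denominators are unlike this one. The members were taken from the listed genes with these results known, so nothing is read from their own count. With a pseudocount of 1 TPM the folds were 4.57 for Myl9, 3.09 for Tagln and 3.14 for Cnn1, so only Myl9 stayed at least 4-fold lower. By fold, from the largest decrease, Myl9 ranked 81, Tagln 115 and Cnn1 138 among the 418 lower genes. The median lower gene in the authors' deposited table was 3.03-fold lower, at a median of 13.02 TPM in Flag cells and 3.96 TPM in Prdm14 cells, so the members combined larger folds with lower levels than the median. All 3 were under 2 TPM in Prdm14 cells, as were 106 of the 418 lower genes and 92 of the 145 that were lower at least 4-fold.

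**Figure D3:**
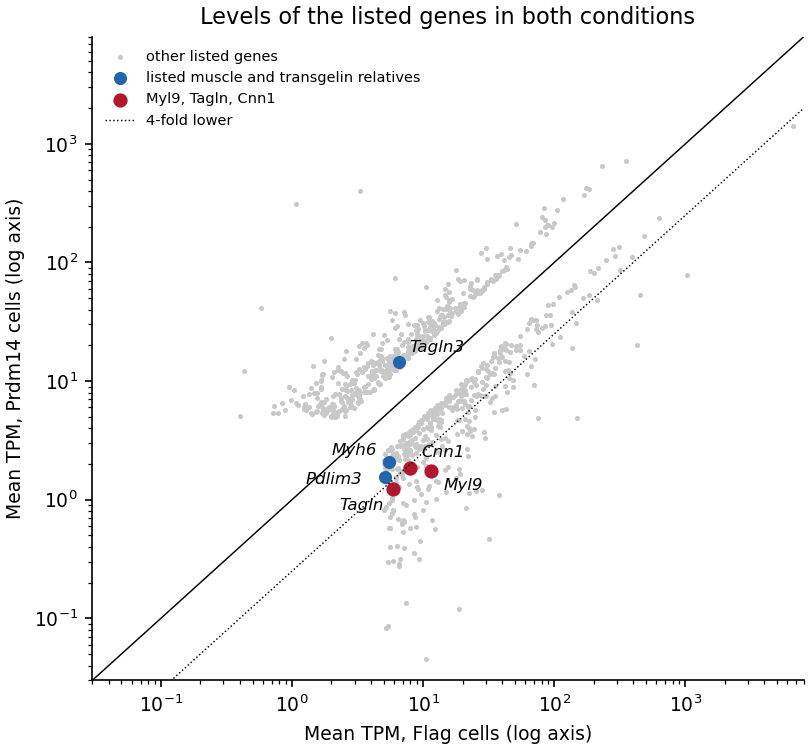
Mean TPM of each listed gene in Flag cells (x axis, log) and Prdm14 cells (y axis, log), leaving out the 6 genes at the floor of the table in 1 condition. The solid line is equality and the dotted line is 4-fold lower. Myl9, Tagln and Cnn1 (red) lie under the dotted line. Of the relatives (blue), Pdlim3 and Myh6 lie between the lines and Tagln3 lies above equality.

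Beyond the 3 members, few genes of the contractile apparatus were listed. The smooth muscle list, with actin, myosin, tropomyosin, caldesmon, desmin and related genes, had 4 of 26 members listed, all lower, and their median log2 fold change was -2.18. Without the 3 members, 1 of 23 was listed (4.35%), which is near the 4.36% listed in either direction among the 20309 genes. That gene was Pdlim3, an alpha-actinin-binding PDZ and LIM protein of muscle Z-lines, at 5.09 TPM in Flag cells and 1.54 TPM in Prdm14 cells, 3.30-fold lower in the authors' deposited table. Pdlim3 was also the weakest of the 4 by q-value, at 0.0018. Genes outside the table, among them the smooth muscle actin gene Acta2 and the smooth muscle myosin gene Myh11, have no value here, which does not show that they were unchanged.

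Within each member's own family, the other genes were mostly unlisted, as were most genes: 4.36% of the 20309 genes were listed in either direction. The family counts include the members themselves, which were taken from the listed genes. Of 11 genes in the annotation named Myl and a number, Myl9 alone was listed. Myl12a and Myl12b, the non-muscle regulatory light chains, have no value here. Of 3 calponin genes, Cnn1 alone was listed. Of 3 transgelin genes, Tagln and Tagln3 were listed and in opposite directions. Tagln3, a transgelin of neurons, was at 6.53 TPM in Flag cells and 14.5 TPM in Prdm14 cells, 2.22-fold higher in the authors' deposited table. Among 14 Myh genes, Myh6, a heavy chain of cardiac myosin, was listed: its mean was 5.54 TPM in Flag cells and 2.10 TPM in Prdm14 cells, 2.64-fold lower. No gene was listed among the 4 tropomyosin, 6 actin or 4 myosin light chain kinase genes, or for Cald1.

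Because relatives can share reads, the members' longest coding transcripts in GENCODE M21 were compared with all other transcripts. No 50-base window of the Myl9 (1128 bases), Tagln (1595 bases) or Cnn1 (2381 bases) transcript occurred in a transcript of another gene on the same strand. The longest identical runs with a close relative are shown because they mark where a short read could fit both genes. All of them lie in coding sequence, counted from the first base of the transcript: Myl9 at 180 to 214 with both Myl12a and Myl12b (35 bases), Cnn1 at 701 to 723 with Cnn3 (23 bases), and Tagln at 679 to 693 with Tagln2 (15 bases).

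Myl9: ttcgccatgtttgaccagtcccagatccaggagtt
Cnn1: agcctgcagatgggcaccaacaa
Tagln: gatcccaactggttt

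The read length is not given in the sources used here, so how many reads could fall inside such a run is unknown.

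None of the 19 genes of the list of SRF, its cofactors and its immediate targets was listed. One of 26 non-muscle actomyosin genes was listed, which is Tagln3, and 1 of 25 striated muscle genes, which is Myh6. These shares, 3.85% and 4%, are near the 4.36% of the 20309 genes. Of 25 genes of TGF-beta signalling and smooth muscle regulation, 5 were listed (20%), 4 higher and 1 lower. That share is above 4.36%, but the lists were chosen with earlier results known, so it is no test. Their median log2 fold change was 1.10, beside 1.03 over all listed genes. The smallest absolute log2 fold change of any listed gene is 1.000, so both medians mainly reflect that more genes were higher than lower.

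Values follow for the 4 of these 5 regulators that were higher. Klf4, a pluripotency factor that is also known to repress smooth muscle genes, went from 15.8 TPM in Flag cells to 56.1 TPM in Prdm14 cells. Zeb1, which represses epithelial genes, was at 2.10 TPM in Flag cells and 11.9 TPM in Prdm14 cells. Tgfb1, a ligand known to induce Tagln and Cnn1, was at 16.5 TPM in Flag cells and 35.2 TPM in Prdm14 cells, 2.14-fold higher in the authors' deposited table. Klf5, a Kruppel-like factor of stem cells and smooth muscle, was at 86.8 TPM in Flag cells and 174 TPM in Prdm14 cells, 2.004-fold higher in that table.

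**Figure D4:**
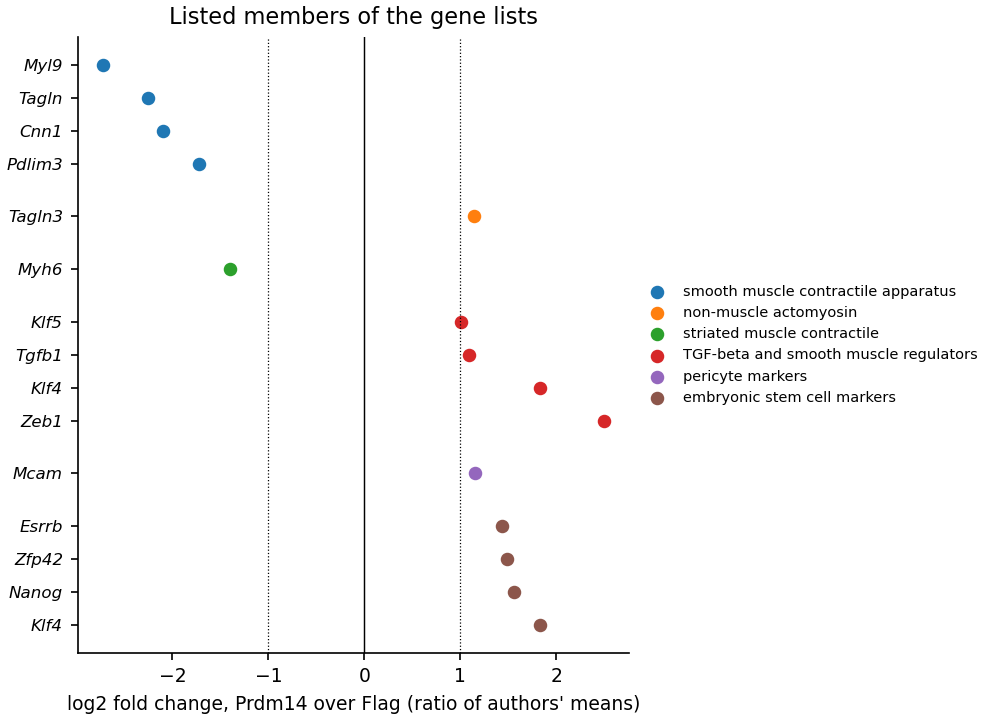
Log2 fold change of Prdm14 over Flag mean TPM (x axis) for the listed genes of the gene lists that are reported here (y axis, coloured by list; Klf4 is on 2 lists). Dotted lines mark the smallest fold of the table; the 4 smooth muscle genes lie between -2.73 and -1.72, and the stem cell markers between 1.43 and 1.83.

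Markers of other cell types that a stem cell culture could hold were checked beside the members. Of the 20309 genes, 4.36% were listed in either direction, so a short list can easily have none. None of 21 fibroblast and feeder markers was listed, which is therefore no measure of such cells. Of 8 pericyte markers 1 was, the adhesion molecule Mcam, which was at 32.9 TPM in Flag cells and 72.9 TPM in Prdm14 cells, in the direction opposite to the members. Of 10 embryonic stem cell markers, 4 were listed, all higher: Klf4, Nanog (117 to 344 TPM), Zfp42 (232 to 649 TPM) and Esrrb (84.8 to 229 TPM). The unlisted markers have no value here, and the part of other cell types in the members' difference was not tested.

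The members lie apart in the genome. Tagln and Cnn1 are both on chromosome 9, where 31 listed genes were higher and 14 lower, so both stood with the smaller number. On chromosome 2, which holds Myl9, 37 were higher and 31 lower. The protein-coding neighbours on either side (Dlgap4 and Tgif2 for Myl9, Pcsk7 and Sidt2 for Tagln, Ecsit and Elof1 for Cnn1) are not listed. The nearest listed gene was 778 kb away for Myl9 (Nnat, lower), 876 kb for Tagln (Mpzl2, higher) and 787 kb for Cnn1 (Ap1m2, lower).

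Genes of the table with the most similar pair of levels were found by Euclidean distance between log2 mean TPM over the 2 conditions, which are only 2 points. Nearest to Myl9 were Slc40a1, the iron exporter ferroportin, at a distance of 0.205, then Usp26, a deubiquitinase gene, at 0.289 and Parp10, an ADP-ribosyltransferase gene, at 0.333. Nearest to Tagln were Serpinf1, which encodes a secreted serpin, at 0.0957, Rem2, a small GTPase gene, at 0.123, and Calml4, a calmodulin-like gene, at 0.162. Nearest to Cnn1 were Ltbr, the lymphotoxin beta receptor, at 0.0490, Fgfr2, an FGF receptor, at 0.0601, and the immunoproteasome subunit gene Psmb9 at 0.121. None of these 9 genes is on the smooth muscle list. Only 4 of the 886 listed genes are on it, 3 of them the members, so little can be read from that.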

How the data were processed

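RNA of 46C cells was sequenced on an MGI2000 instrument, per the labels' protocols, with 1 sample for Flag and 1 for Prdm14. The submitters' processing notes name Bowtie 0.12.2 and mm10, and the sources used here name neither the TPM program nor the authors' test. For 886 selected genes the authors deposited mean TPM values, log2 fold changes, p-values and q-values. How many values each mean rests on is not stated, TPM carries no read number, and no SD, depth or counting interval could be given. The deposited log2 fold change equals the log2 ratio of the means to within 4.09e-11, so folds are ratios of means. A rank implied by the q-value was whole to within 0.01 in 830 genes.

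All 886 IDs matched a symbol; coordinates are 1-based, from GENCODE M21. Members and gene lists were chosen with earlier results of these data known. Named genes are the 3 members, listed genes of the gene lists and of 8 name families, the 3 listed genes nearest each member (predicted models left out), and Prdm14. One listed gene and 1 list are not reported here. Acta2, Myh11, Myl12a and Myl12b are named without values. The SRF list of 23 names included 4 older symbols that matched none, leaving 19. Recovery of the number of tested genes and the CArG scan were tested on simulated data. Alternatives changed the pseudocount, fold, q and TPM thresholds, and the CArG match and window. Scripts ran in Python 3.11.15 with pandas 2.3.3, numpy 2.4.6 and, for figures, matplotlib 3.10.9.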

Additional observations from a re-analysis of the deposited data

How the results depend on the processing

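All 3 members stayed lower under each pseudocount. With 0.1 TPM added, the log2 fold change was -2.66 for Myl9, -2.17 for Tagln and -2.04 for Cnn1; with 1 TPM added it was -2.19, -1.63 and -1.65, so Tagln and Cnn1 changed places and were no longer 4-fold lower. With 1 TPM added they ranked 82, 158 and 153 among lower genes. Among genes with a larger mean of at least 10 TPM, Myl9 ranked 42, and Tagln and Cnn1 dropped out. When a 4-fold difference was required, 77 genes were higher and 145 lower; with a larger mean of at least 10 TPM, 347 were higher and 254 lower. At that fold, 3 of the 4 smooth muscle genes stayed, 2 of the TGF-beta list did, and 0 of the stem cell, non-muscle actomyosin, striated muscle and pericyte lists. Leaving out the members, chosen after seeing the data, left 1 smooth muscle gene. Allowing 1 mismatch gave Myl9 2 CArG boxes, and Cnn1 still 0. The counts at a q-value of at most 0.01, and boxes before the start alone, stayed within 1.5 times. No paired analysis was possible because each condition has 1 deposited mean. Leaving out a replicate was not possible either.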
